A study of Arabidopsis thaliana with 48 samples.

Results

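The photosynthetic electron transport chain is built from proteins of both the plastid and the nuclear genome, and 34 of its nuclear genes are described here in Arabidopsis seedlings under salt, high light, heat and their combinations. The genes were chosen by function, from the protein each encodes and not from its values: nuclear subunits of photosystem II (PSB genes, 10) and photosystem I (PSA genes, 12), the Rieske protein PETC and plastocyanins PETE1 and PETE2, the ATP synthase subunits ATPC1 and ATPD, leaf ferredoxins (FD1, FD2) and ferredoxin-NADP reductases (FNR1, FNR2), and the cyclic electron flow proteins PGR5, PGRL1A and PGRL1B. Earlier results of these data were known when the genes were chosen. They are 34 of 32824 genes measured, and all 34 passed the filter on low values in both genotypes.

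RNA was sequenced from Arabidopsis seedlings, either the Columbia wild type (Col-0) or a mutant of the transcription factor gene bHLH35 in the same Columbia background, in 48 libraries, as 3 replicates of each of 8 treatments per genotype. Control seedlings grew without salt at 150 µE and 21 °C, salt-treated seedlings (S) had 50 mM salt in the growth medium from the start, high light (HL) was 700 µE and heat (HS) was 33 °C. High light and heat were given for 1.5 h at an age of 7 days, and the other groups were HL+HS, S+HL, S+HS and S+HL+HS. All groups share the same medium base. The labels name no further agent and do not say whether replicates were separate cultures, so p-values measure the spread between these libraries, which may be technical. Each genotype has its own deposited table, so a comparison of levels between the genotypes is also one between the tables.

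Light drives electrons from water through photosystem II, plastoquinone, the cytochrome b6f complex, plastocyanin and photosystem I to ferredoxin, and ferredoxin-NADP reductase passes them to NADP. Protons released into the thylakoid lumen on the way drive the chloroplast ATP synthase, and PGR5 with PGRL1 returns electrons from ferredoxin to plastoquinone in cyclic flow. Most reaction centre proteins come from the plastid genome, whereas the nuclear genes encode extrinsic, docking and small membrane subunits, often as a pair of near copies.

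Promoter windows are shown for 5 members whose transcript levels are compared below: PSBQ2, which fell in the salt treatments, and the near-copy pairs PETE1 with PETE2 and PGRL1A with PGRL1B, whose members diverged. Each runs 5′ to 3′ and ends at the base before the annotated gene start, in RefSeq assembly TAIR10.1 (the submitters' processing notes name TAIR10). PSBQ2 is chr4:2673244-2673493, minus strand, PETE1 chr1:28554931-28555033, minus strand, PETE2 chr1:7043393-7043627, minus strand, PGRL1A chr4:12006736-12006985, plus strand and PGRL1B chr4:7177889-7178138, minus strand. The PETE1 and PETE2 stretches stop where exons of a neighbouring gene begin. Capitals mark matches, on either strand, to CACGTG (G-box), GATAAG (I-box), CCAAT, TTCNNGAA (part of a heat shock element) or ACGTGG (core of an abscisic acid response element, which overlaps the G-box).
PSBQ2: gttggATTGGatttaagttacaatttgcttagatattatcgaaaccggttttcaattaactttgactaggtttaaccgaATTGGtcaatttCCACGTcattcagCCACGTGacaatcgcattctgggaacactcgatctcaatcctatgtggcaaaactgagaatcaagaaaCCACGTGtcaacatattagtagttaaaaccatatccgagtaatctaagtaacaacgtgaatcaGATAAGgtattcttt
PETE1: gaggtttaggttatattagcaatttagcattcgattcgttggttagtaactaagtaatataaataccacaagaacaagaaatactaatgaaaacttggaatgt
PETE2: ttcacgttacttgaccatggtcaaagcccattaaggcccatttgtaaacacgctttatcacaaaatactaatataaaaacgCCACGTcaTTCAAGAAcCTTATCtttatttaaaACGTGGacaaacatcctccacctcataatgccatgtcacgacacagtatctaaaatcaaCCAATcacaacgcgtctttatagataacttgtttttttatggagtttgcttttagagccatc
PGRL1A: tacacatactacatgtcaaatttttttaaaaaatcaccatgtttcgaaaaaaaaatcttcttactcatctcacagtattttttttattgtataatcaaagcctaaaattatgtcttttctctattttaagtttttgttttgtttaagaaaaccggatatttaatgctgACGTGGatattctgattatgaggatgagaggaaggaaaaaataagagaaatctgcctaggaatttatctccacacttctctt
PGRL1B: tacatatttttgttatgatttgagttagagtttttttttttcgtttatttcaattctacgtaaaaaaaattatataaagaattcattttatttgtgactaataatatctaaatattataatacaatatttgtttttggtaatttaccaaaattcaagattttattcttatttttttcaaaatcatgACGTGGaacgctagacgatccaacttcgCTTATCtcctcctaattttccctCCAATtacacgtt

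PSBQ2 held CACGTG at 2 places, PETE2 held matches to 4 of the 5 motifs, and the shown stretch of PETE1 held none. Over 250-base windows of all 34 members, 12 (35.3%) contained ACGTGG, against 8.23% of 27438 windows of protein-coding genes. CACGTG was in 6 (17.6%, against 6.49%), GATAAG in 9 (26.5%, against 12.3%), TTCNNGAA in 6 (17.6%, against 7.68%) and CCAAT in 17 (50.0%, against 46.0%). These matches describe the letters in the windows and were not tested against the transcript values. The counts are over whole windows, and many windows of members include exons of a neighbouring gene. In PSBP1, PSAD2 and FD1 such exons reach the gene start. Some matches, such as CACGTG in the window of ATPD, lie outside the exon-free stretch next to the gene.

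Depth, read from the steps between low values, was 19.4 to 43.9 M fragments (M, mega) per library, and libraries of a group correlated at r 0.973 to 0.990 across genes. The 43.9 M was that of S replicate 1 of Col-0, with 92.2% of its low values whole, and the next highest depth was 29.7 M. A multiple of the true depth can fit such steps nearly as well, so the 43.9 M may be too high, which was not tested. AT5G57150 (bHLH35) stood at 23.5 ± 3.66 FPKM in Control of Col-0 and 4.62 ± 1.23 FPKM in that of the mutant (SD, n = 3), and was lower in the mutant in all 8 treatments. Expression is given as FPKM (a fragment count scaled by transcript length and by the total mapped in its library), so levels can be set side by side between genes. Low values came out as whole fragments with 268 to 324 bases taken off the transcript length. Levels of short transcripts may therefore depend on that correction when set beside those of other genes. Changes are log2 differences of FPKM + 1 against Control, and "rose", "fell" or "called" means a limma adjusted p under 0.05 over all genes of a genotype. Root transcripts moved with the treatments, and 9 of 9 root markers (CASP1, CASP2, EXPA7, COBL9, TIP2;3, PRP3, LRX1, PHO1 and MYB36) were called higher in S in both genotypes, with median log2 changes of 1.70 (Col-0) and 2.55 (mutant). Their summed FPKM was 87.7 to 106 in Control libraries of Col-0, 237 to 384 in S, 178 to 294 in HL, 123 to 143 in HS, 154 to 338 in HL+HS, 297 to 349 in S+HL, 332 to 381 in S+HS and 299 to 395 with all 3 stresses. In the mutant it was 55.3 to 65.5 in Control and 288 to 378 in S. Green tissue markers (RBCS1A, RCA, CA1, LHCB1.1, LHCA1) summed to 24781 to 28968 FPKM in Control of Col-0 and 21582 to 25911 in S. The sum was 22789 to 23451 in HL, 21513 to 23824 in HS and 22530 to 25490 in HL+HS. It was 20611 to 20921 in S+HL, 17516 to 18502 in S+HS and 18293 to 20300 with all 3 stresses. In S 2 of 5 were called lower, and in S+HS 5 of 5. The mutant had 27308 to 29033 in Control, 23740 to 24380 in S and 23552 to 26546 in HL. It had 23036 to 25995 in HS and 25742 to 28993 in HL+HS. The seed markers CRA1 and OLEO1 were not called in any stress treatment of either genotype. The part of these markers in the results on the photosynthetic genes was not tested, and in bulk RNA a smaller share of green cells and less RNA per green cell cannot be told apart.

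The 34 genes were among the most abundant transcripts of the unstressed seedling. In Control of Col-0, 18 ranked within the top 50 of all genes, 26 within the top 100 and 31 within the top 200. In the mutant these numbers were 17, 26 and 31. PSBR, a small photosystem II subunit that helps to hold the oxygen-evolving proteins, was the highest, with 7388, 8107 and 7611 FPKM in the Control libraries of Col-0 and a rank of 5 among all genes. PSBO1, the manganese-stabilising protein of photosystem II, stood at 3907, 3598 and 3908 FPKM. PGRL1B was the lowest at 46.1, 34.4 and 37.9 FPKM, followed by PGR5 at 175, 212 and 194 FPKM. Together with PGRL1A, these cyclic flow genes lay below every photosystem subunit in Control of Col-0. The members together made up 8.46 ± 0.255% of the summed FPKM in Control of Col-0 (SD, n = 3). That share was 6.78 ± 0.513% in S, 7.06 ± 0.233% in HL, 7.43 ± 0.133% in HS and 7.32 ± 0.372% in HL+HS. It was lowest where salt met a second stress, with 5.40 ± 0.269% in S+HS, 5.48 ± 0.323% in the 3-stress group S+HL+HS and 6 ± 0.298% in S+HL. The mutant went from 8.76 ± 0.385% in Control to 6.73 ± 0.179% in S and 5.50 ± 0.109% in S+HL+HS. In both genotypes the Control libraries lay above those of all 4 salt treatments with no overlap.

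**Figure D1:**
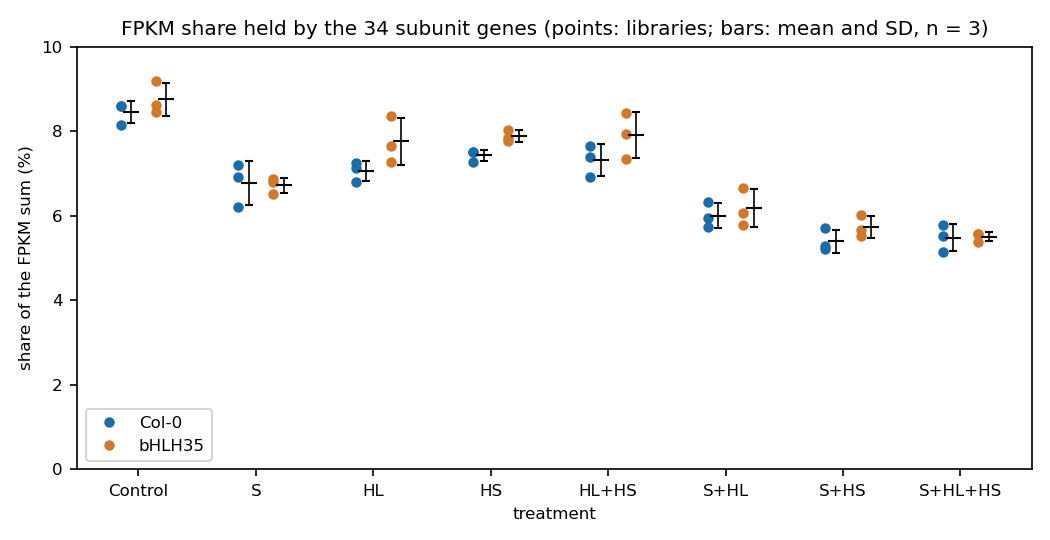
Summed FPKM of the 34 genes as a percent of all FPKM in a library, for each treatment in Col-0 and the bHLH35 mutant; points are libraries and bars are the mean and SD of 3 libraries. Control libraries hold the largest shares, with means of 8.46% and 8.76%, and the salt combinations the smallest.

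Most of the 34 genes fell under salt, and nearly all fell when salt was combined with light or heat. In S of Col-0, 22 of 34 fell and 0 rose (median log2 change -0.33), where 5.17% of all genes tested fell and 13.6% rose. S+HL had 29 lower and 2 higher (median -0.52), against 12.8% and 23.2% of all genes. In S+HS there were 30 lower and 2 higher (median -0.71), against 18.9% and 26%, and in S+HL+HS 31 lower and 2 higher (median -0.62), against 16.3% and 23.6%. FD1 and PGRL1B were the 2 that rose in each of these combinations. All 9 root markers were called higher in S, S+HS and S+HL+HS, and 8 of 9 in S+HL.

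The short stresses without salt gave fewer calls than the salt combinations. In HL of Col-0, 20 genes fell and 2 rose (median -0.33), against 7.7% and 10% of all genes, with 6 of 9 root markers called higher. HS had 14 lower and 3 higher (median -0.18), against 15.7% and 15%, and 2 root markers called higher. In HL+HS, 13 fell and 2 rose (median -0.21), against 19.4% and 12%, with 6 root markers called higher. Single libraries weighed on these counts: the number lower in S was 12 without S replicate 1, in HL 13 without Control replicate 3, in HS 9 without HS replicate 1, HS replicate 2 or Control replicate 3, and in HL+HS 8 without Control replicate 3 or HL+HS replicate 3. Rescaling the libraries by the median of ratios lowered the HS count to 9 and the HL+HS count to 5. Fitting the contrasted groups alone gave 8 lower in HL and 9 in HS. The shares of all genes called in these other fits are not given here.

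In the mutant, 27 genes fell in S (7.27% of all genes fell and 19.3% rose), 31 in S+HL (13.1% and 24.8%), 30 in S+HS (16% and 28.3%) and 31 in S+HL+HS (20.4% and 23.9%). None rose in S and 2 rose in each of the other 3 treatments, and all 9 root markers were called higher in all 4. HL gave 10 lower and 1 higher (9.29% and 8.1% of all genes), HS 9 and 3 (14.8% and 14.1%), and HL+HS 13 and 3 (24.7% and 10.7%), with 4, 0 and 3 root markers called higher. The HL+HS values depended on the scaling and on single libraries: after median-of-ratios scaling 3 members were lower there and the members' median moved from -0.20 to 0.0021, and without Control replicate 1, HL+HS replicate 1 or HL+HS replicate 3 the count was 5. Without HL replicate 1 the mutant's HL count was 20 lower, and without Control replicate 1 it was 5. Fitted on the contrasted groups alone, the mutant had 4 lower in HL and 5 in HS. Median-of-ratios scaling gave 6 in HL, a mean FPKM of at least 5 gave 16 there, and a common FPKM sum gave 14 in HS. For these fits too, the shares of all genes called are not given here.

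**Figure D2:**
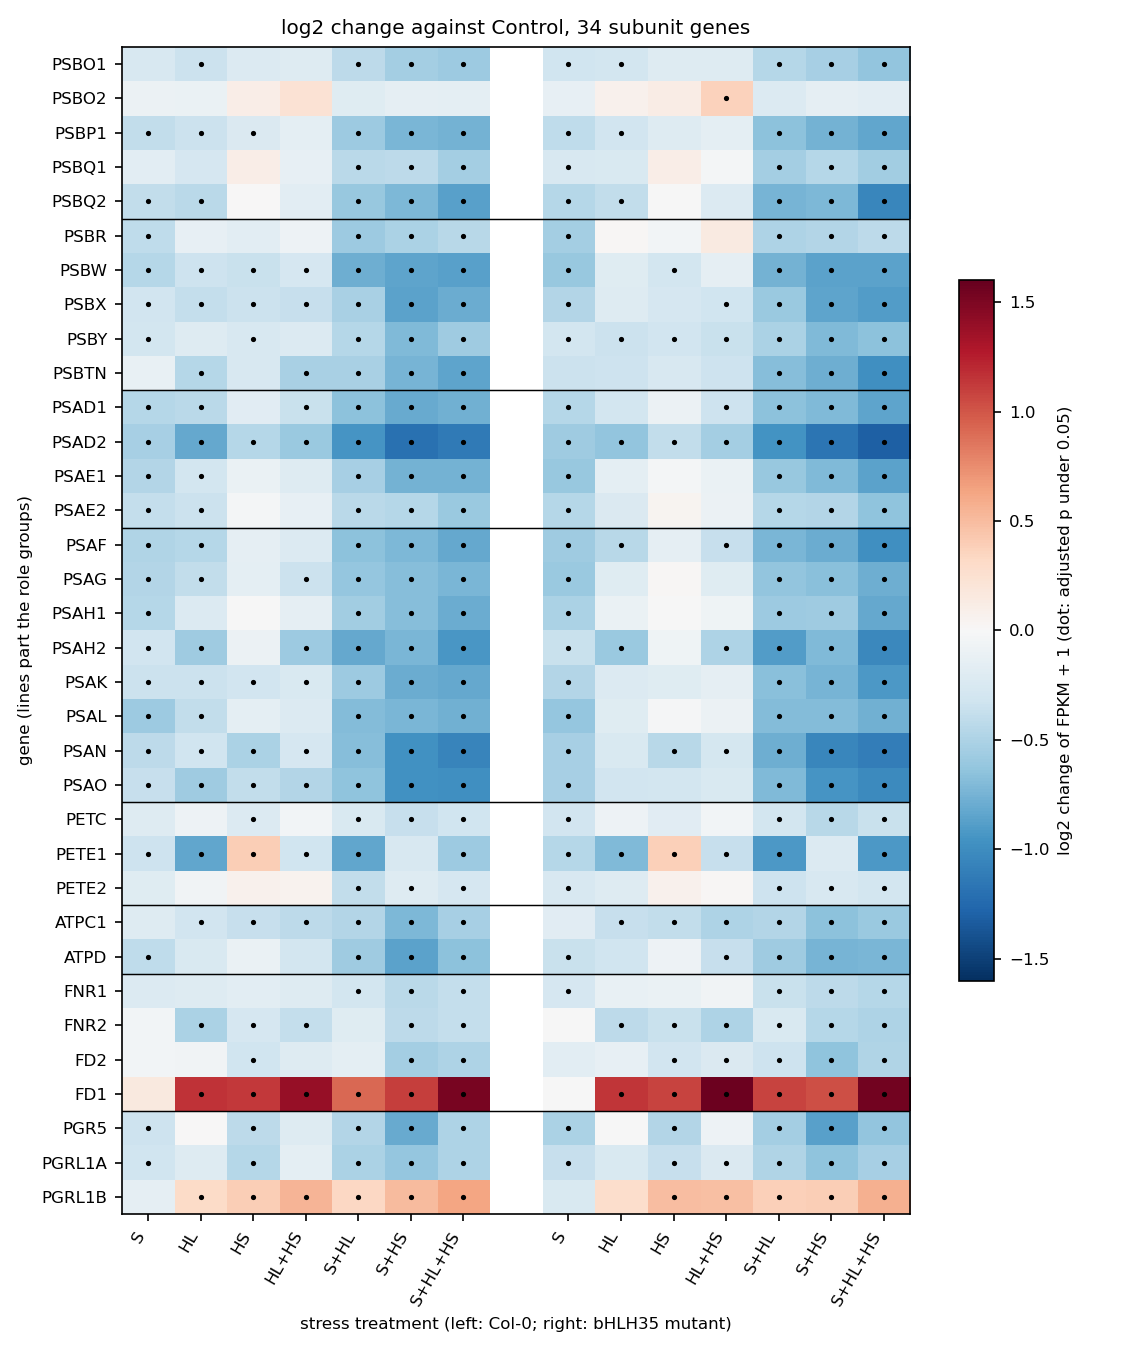
Log2 change of FPKM + 1 against Control for each of the 34 genes (rows, by role) in the 7 stress treatments of both genotypes (columns); dots mark limma adjusted p under 0.05. Blue (lower) fills most of the salt combinations, where 29 to 31 of the 34 genes fell in Col-0, and FD1 and PGRL1B are red (higher) there.

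The oxygen-evolving proteins sit on the lumenal face of photosystem II, where PSBO steadies the manganese cluster and PSBP and PSBQ hold its calcium and chloride. In Col-0, 2 of the 5 genes fell in S, 3 in HL, 1 in HS and 0 in HL+HS, against 5.17%, 7.7%, 15.7% and 19.4% of all genes. The 1 of 5 in HS lay near that share. In S+HL, S+HS and S+HL+HS 4 fell, against 12.8%, 18.9% and 16.3%. PSBQ2 (TAIR10.1 AT4G05180, chr4:2671523-2673243) had 1538, 1284 and 1391 FPKM in the Control libraries of Col-0 and 788, 842 and 670.4 in S+HL+HS. The 2 groups of libraries did not overlap, with a log2 change of -0.87 (SE 0.11, adjusted p 2.5e-06 in limma). In the mutant its S+HL+HS change was -1.05 (SE 0.12, adjusted p 1.2e-06 in limma). PSBO1 (AT5G66570, chr5:26568572-26570461) went from 3907, 3598 and 3908 FPKM to 2558, 2676 and 2392 in S+HL+HS, with no overlap and a log2 change of -0.58 (SE 0.09, adjusted p 5.0e-05 in limma). PSBO2 (AT3G50820, chr3:18890874-18892508), its near copy, was the exception in this group, with 1164, 1206 and 1213 FPKM in Control and 1112, 1106 and 997 in S+HL+HS. Its change was -0.16 (SE 0.10, adjusted p 0.211 in limma), and no stress treatment of Col-0 passed the test. In the mutant PSBO2 passed in HL+HS alone, where it rose by 0.37 (SE 0.10, adjusted p 0.00728 in limma).

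With heat, the log2 ratio of PSBO1 to PSBO2, averaged over salt and light, changed by -0.24 in Col-0 (exact permutation test within salt and light levels, two-sided, adjusted p 0.000225 over 54 tests of pair ratios) and by -0.25 in the mutant (exact permutation, adjusted p 0.000135). PSBO1 was 76.1 ± 1.09% of the pair in Control of Col-0 and 71.8 ± 0.999% in HS (SD, n = 3). Their transcripts are 82.1% identical, and the longest identical run is 32 bases, against reads of 150 bases. Over the 9 near-copy pairs, identity ran from 73.5% to 83.9% and the longest identical run from 17 to 38 bases. How reads that matched both copies were assigned is not given in the sources used here, so levels within a pair are uncertain to that extent.

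The small photosystem II subunits stabilise the dimer and its contact with the antenna. Of the 5 genes, 4 fell in S and all 5 in S+HL, S+HS and S+HL+HS, in Col-0 and in the mutant. Of all genes, 5.17%, 12.8%, 18.9% and 16.3% fell there in Col-0, and 7.27%, 13.1%, 16% and 20.4% in the mutant. PSBR (AT1G79040, chr1:29735952-29737009) had 4813, 5883 and 5649.6 FPKM in S+HS of Col-0, below every one of the Control libraries given above, with a log2 change of -0.50 (SE 0.11, adjusted p 0.00109 in limma). PSBW (AT2G30570, chr2:13019028-13020311), needed for stable supercomplexes with the antenna, stood at 2515, 2908 and 2774 FPKM in Control and 1446, 1509 and 1592 in S+HS, with no overlap (log2 change -0.85, SE 0.08, adjusted p 1.4e-07 in limma). PSBTN (AT3G21055, chr3:7376432-7377226), a small lumenal subunit, stood at 1965, 2572 and 2449.8 FPKM in Control and 1867, 2259 and 2314 in S. Those libraries overlapped, and the change of -0.11 (SE 0.13, adjusted p 0.587 in limma) did not pass the test. In S+HS it fell to 1439, 1252 and 1474 FPKM, a change of -0.74 (SE 0.13, adjusted p 8.7e-05 in limma). PSBX and PSBY, small membrane subunits near cytochrome b559, changed by -0.86 and -0.71 in S+HS of Col-0, both called.

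Photosystem I genes were lower in every salt treatment: all 12 fell in S, S+HL, S+HS and S+HL+HS, in Col-0 and in the mutant. Their median log2 change in Col-0 was -0.46 in S and -0.80 with all 3 stresses. The medians of the mutant were -0.53 and -0.88. Photosystem II had 6, 9, 9 and 9 of 10 lower in those treatments of Col-0 and 8, 9, 9 and 9 in the mutant. The shares of all genes lower were 5.17%, 12.8%, 18.9% and 16.3% in Col-0, and 7.27%, 13.1%, 16% and 20.4% in the mutant. In Col-0, 11 of the 12 photosystem I genes fell in HL, 4 in HS and 7 in HL+HS, where 7.7%, 15.7% and 19.4% of all genes fell. In the mutant the counts were 3, 2 and 5, against 9.29%, 14.8% and 24.7%, and the 2 of 12 in HS lay near that background.

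On the stromal side, PSAD and PSAE form the ferredoxin docking site of photosystem I. PSAD2 (AT1G03130, chr1:753307-754262) was called in all 7 stress treatments of both genotypes. Its Control libraries in Col-0 had 1281, 1209.7 and 1229 FPKM, those of HL 666, 761 and 679, those of HS 847, 990 and 869 and those of S+HS 584, 498 and 548. Every stress library of Col-0 lay below every Control library for this gene. The changes were -0.82 (SE 0.11, adjusted p 3.1e-05 in limma) in HL and -1.19 (SE 0.11, adjusted p 4.2e-08 in limma) in S+HS. In the mutant the change in S+HL+HS was -1.31 (SE 0.12, adjusted p 5.0e-08 in limma), while its HS call was lost when Control replicate 1, HS replicate 1 or HS replicate 3 was left out. PSAD1 (AT4G02770, chr4:1229031-1230164) had 2025, 1978 and 2071 FPKM in Control of Col-0 and 1199, 1064 and 1228 in S+HS (log2 change -0.80, SE 0.10, adjusted p 1.6e-06 in limma). PSAE2 (AT2G20260, chr2:8736734-8737767) overlapped Control in HS, with 1503, 1322 and 1319.7 FPKM in Control and 1271, 1394 and 1386 in HS (log2 change -0.03, SE 0.08, adjusted p 0.81 in limma, not called), and fell in S+HS to 982, 972 and 1056 (log2 change -0.46, SE 0.08, adjusted p 0.000166 in limma). With salt the log2 ratio of PSAE1 to PSAE2 changed by -0.13 in Col-0 and -0.18 in the mutant (exact permutation, adjusted p 0.0009 and 0.000135). PSAE1 shares 33% of its exon bases with AT4G28755 on the opposite strand, which was under 1 FPKM in 38 of 48 libraries and over 300 FPKM in 8, so the PSAE1 values are uncertain where strand was not used in counting.

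The membrane and lumen subunits include PSAF and PSAN, which bind plastocyanin, PSAG and PSAK, which hold the antenna, and PSAH, PSAL and PSAO, where light-harvesting complex II docks in state transitions. PSAN (AT5G64040, chr5:25628521-25629708) had 2006, 2158 and 2083 FPKM in Control of Col-0, 1398, 1664 and 1622 in S and 963, 1120.1 and 932 in S+HL+HS. All libraries of both salt treatments were below Control, with a log2 change of -1.05 (SE 0.10, adjusted p 8.8e-08 in limma) in S+HL+HS. In the mutant PSAN changed by -1.10 (SE 0.10, adjusted p 3.8e-08 in limma). PSAL (AT4G12800, chr4:7521257-7522761) went from 3347, 3443 and 3680.2 FPKM to 2141, 2398 and 2493 in S, with no overlap (log2 change -0.58, SE 0.08, adjusted p 0.000107 in limma). PSAO (AT1G08380, chr1:2640803-2641934) went from 2634, 2893 and 3029 FPKM to 2120.5, 1836 and 1826 in HL (log2 change -0.57, SE 0.11, adjusted p 0.000988 in limma). PSAF changed by -0.81, PSAK by -0.82, PSAG by -0.73, PSAH1 by -0.79 and PSAH2 by -0.93 in S+HL+HS of Col-0, all called. With light the log2 ratio of PSAH1 to PSAH2 rose by 0.30 in Col-0 and 0.34 in the mutant (exact permutation, adjusted p 0.00045 and 9.6e-05). PSAG shares 61.4% of its exon bases with the opposite-strand gene AT1G55673, which had 499 to 2342 FPKM, and PSAH1 shares 53.3% with ROPGEF13, which was near 0 in all libraries. PSAG values are therefore uncertain, because the sources used here do not give the strand setting of the counting. In all, 11 of the 34 members share exon bases with a neighbour, 4 of them over 20%, counting PSAH2 with 24.8%.

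Between the photosystems, PETC carries the Rieske iron-sulfur cluster of cytochrome b6f, and PETE1 and PETE2 encode plastocyanin, the copper protein that feeds photosystem I. PETE1 (AT1G76100, chr1:28553883-28554930) moved in opposite directions with light and with heat. In Col-0 it had 307, 279 and 298 FPKM in Control, 165, 165 and 164 in HL and 331, 396 and 444 in HS. The HL libraries all lay below Control and the HS libraries all above it. The log2 change was -0.84 (SE 0.11, adjusted p 4.0e-05 in limma) in HL and 0.39 (SE 0.11, adjusted p 0.0116 in limma) in HS, the latter lost without HS replicate 3. In the mutant the values were 351, 317 and 289.99 FPKM in Control, 202, 196 and 186 in HL and 312, 473 and 487 in HS, where the HS libraries overlapped Control (log2 change 0.38, SE 0.14, adjusted p 0.0458 in limma), and that call was lost without any of 4 of these 6 Control and HS libraries. S+HL gave 171, 154 and 171 FPKM in Col-0 (log2 change -0.83, SE 0.11, adjusted p 1.0e-05 in limma). PETE2 (AT1G20340, chr1:7042046-7043392), the major form, had 2729.7, 2678 and 2766 FPKM in Control of Col-0 and 2496, 2706 and 2681 in HL, where libraries overlapped (log2 change -0.05, SE 0.08, adjusted p 0.716 in limma, not called). PETE1 therefore made up 9.76 ± 0.332% of the pair in Control, 5.90 ± 0.26% in HL and 12.04 ± 1.65% in HS (SD, n = 3). With light the log2 ratio changed by -0.52 in Col-0 and -0.56 in the mutant (exact permutation, adjusted p 9.6e-05 and 9.6e-05), and with heat by 0.24 and 0.15 (exact permutation, adjusted p 0.00365 and 0.0434). PETC (AT4G03280, chr4:1440146-1441863) went from 1698, 1845 and 1878 FPKM in Control to 1477, 1504 and 1353 in S+HL+HS of Col-0 (log2 change -0.32, SE 0.08, adjusted p 0.00374 in limma).

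**Figure D3:**
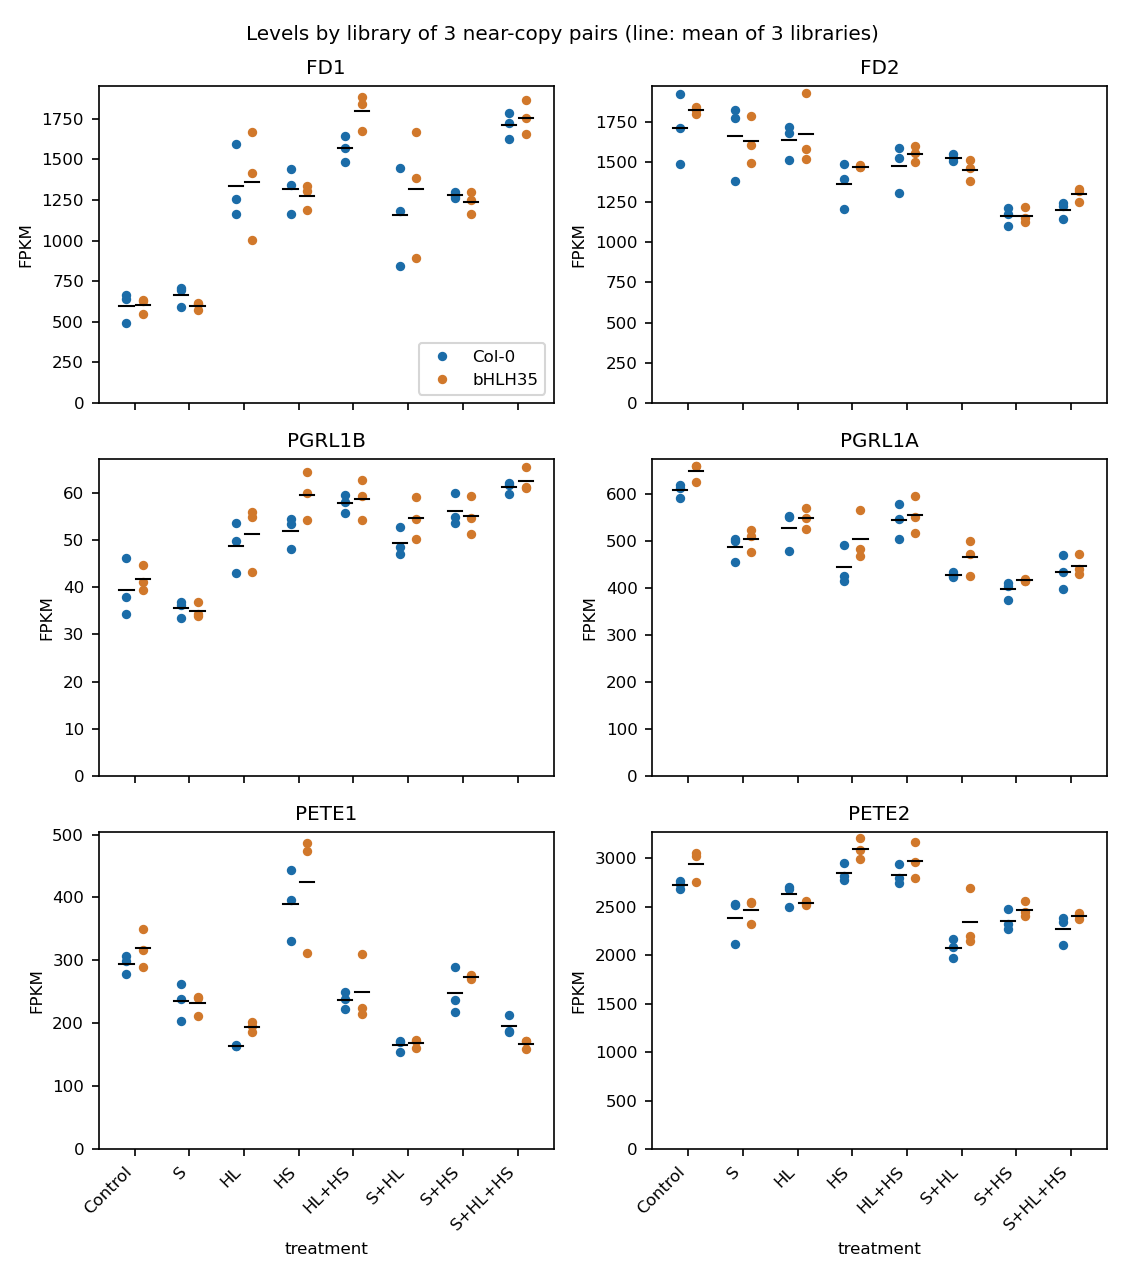
FPKM by library of 3 near-copy gene pairs, 1 gene to a panel, in Control and the 7 stress treatments of both genotypes; points are libraries and short lines are means of 3 libraries. FD1 means are higher in every treatment with light or heat than in Control, and in Col-0 PETE1 is lowest in HL, where its libraries had 164 to 165 FPKM, and in S+HL.

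Of the nuclear ATP synthase genes, ATPC1 encodes the thiol-regulated gamma subunit of the rotor and ATPD the delta subunit of the stalk. ATPC1 (AT4G04640, chr4:2350498-2352025) had 1131, 1119.8 and 1235 FPKM in Control of Col-0, 826, 879 and 991 in HS and 718, 658 and 741 in S+HS. No stress library of either genotype overlapped its Control, and the change in S+HS was -0.72 (SE 0.09, adjusted p 2.4e-06 in limma). ATPD (AT4G09650, chr4:6100714-6101864) stood at 897, 862 and 963 FPKM in Control and 721, 802 and 1026 in HS, which overlapped (log2 change -0.11, SE 0.12, adjusted p 0.528 in limma, not called). It fell to 544, 449.6 and 515 FPKM in S+HS (log2 change -0.85, SE 0.12, adjusted p 8.5e-06 in limma).

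At the acceptor side of photosystem I, FD2 is the main leaf ferredoxin and FD1 the minor one, and FNR1 and FNR2 pass electrons to NADP. FD1 (AT1G10960, chr1:3664187-3665040) rose in every treatment with light or heat. Its libraries in Col-0 had 494, 667 and 639.9 FPKM in Control and 592, 695 and 706 in S, which overlapped (log2 change 0.15, SE 0.16, adjusted p 0.55 in limma, not called). In HL it stood at 1162, 1253 and 1591 FPKM, in HS at 1439.9, 1341 and 1162 and in S+HL+HS at 1786, 1624 and 1725. All of these libraries exceeded the highest Control library. The changes were 1.15 (SE 0.16, adjusted p 4.0e-05 in limma) in HL, 1.14 (SE 0.16, adjusted p 1.5e-05 in limma) in HS, 1.39 (SE 0.16, adjusted p 1.8e-06 in limma) in HL+HS and 1.52 (SE 0.16, adjusted p 3.2e-07 in limma) in S+HL+HS. In the mutant FD1 had 625, 551 and 635 FPKM in Control and 1862, 1654 and 1754 in S+HL+HS (log2 change 1.54, SE 0.17, adjusted p 8.3e-07 in limma), and none of its calls against Control in either genotype was lost under any alternative tried. FD2 (AT1G60950, chr1:22444307-22445291) had 1486, 1925 and 1713 FPKM in Control of Col-0 and 1224, 1242 and 1143 in S+HL+HS (log2 change -0.50, SE 0.11, adjusted p 0.00166 in limma). FD1 was thus 25.96 ± 1.15% of the ferredoxin pair in Control, 49.1 ± 5.27% in HS and 58.7 ± 1.81% in S+HL+HS (SD, n = 3). With light the log2 ratio of FD1 to FD2 rose by 0.65 in Col-0 and 0.82 in the mutant (exact permutation, adjusted p 0.000363 and 9.6e-05), and with heat by 1.06 and 1.02 (exact permutation, adjusted p 0.000135 and 9.6e-05). FD1 shares 78 exon bases with its same-strand neighbour TMN1 (AT1G10950), whose group means stayed between 35.2 and 56.3 FPKM.

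FNR2 (AT1G20020, chr1:6942625-6945091) had 714, 625 and 673 FPKM in Control of Col-0, 569, 713 and 682 in S and 431, 499.98 and 485 in HL. The S libraries overlapped Control (log2 change -0.04, SE 0.10, adjusted p 0.838 in limma, not called), and the HL libraries did not (log2 change -0.51, SE 0.10, adjusted p 0.00143 in limma). FNR1 (AT5G66190, chr5:26450964-26453199) went from 661, 794 and 775 FPKM to 534, 514 and 598 in S+HS (log2 change -0.44, SE 0.09, adjusted p 0.000642 in limma). With salt the log2 ratio of FNR1 to FNR2 changed by -0.22 in Col-0 and -0.32 in the mutant (exact permutation, adjusted p 0.00233 and 9.6e-05).

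PGR5 and the PGRL1 proteins carry the antimycin-sensitive branch of cyclic electron flow, which protects photosystem I in strong or changing light. PGR5 (AT2G05620, chr2:2080647-2081859) had 175, 212 and 194 FPKM in Control of Col-0, 197, 197 and 187 in HL and 106, 114 and 110.1 in S+HS. HL overlapped Control (log2 change 0.01, SE 0.09, adjusted p 0.983 in limma, not called), and S+HS lay below it (log2 change -0.81, SE 0.09, adjusted p 9.7e-07 in limma). PGRL1A (AT4G22890, chr4:12006986-12009536) had 620.3, 591 and 614 FPKM in Control and 376, 411 and 406 in S+HS, with no overlap (log2 change -0.61, SE 0.09, adjusted p 8.2e-06 in limma). PGRL1B (AT4G11960, chr4:7174886-7177888) went the other way, with 46.1, 34.4 and 37.9 FPKM in Control, 55.7, 57.98 and 59.6 in HL+HS and 61.6, 62 and 59.8 in S+HL+HS. The highest Control library lay below all libraries of both combinations, and the changes were 0.55 (SE 0.10, adjusted p 0.00033 in limma) and 0.63 (SE 0.10, adjusted p 4.3e-05 in limma). Its smaller HL change of 0.30 (SE 0.10, adjusted p 0.0381 in limma) in Col-0 was lost when any of 4 libraries was left out, and under median-of-ratios scaling its S+HL call in Col-0 and its S+HL and S+HS calls in the mutant were lost. PGRL1A was 93.9 ± 0.747% of the pair in Control of Col-0 and 87.6 ± 0.733% in S+HL+HS (SD, n = 3). Its log2 ratio to PGRL1B changed with heat by -0.57 in Col-0 and -0.55 in the mutant (exact permutation, adjusted p 9.6e-05 and 0.000434), with salt by -0.29 and -0.25 (exact permutation, adjusted p 0.000225 and 0.000834), and with light by -0.25 and -0.30 (exact permutation, adjusted p 0.0186 and 0.0153).

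**Figure D4:**
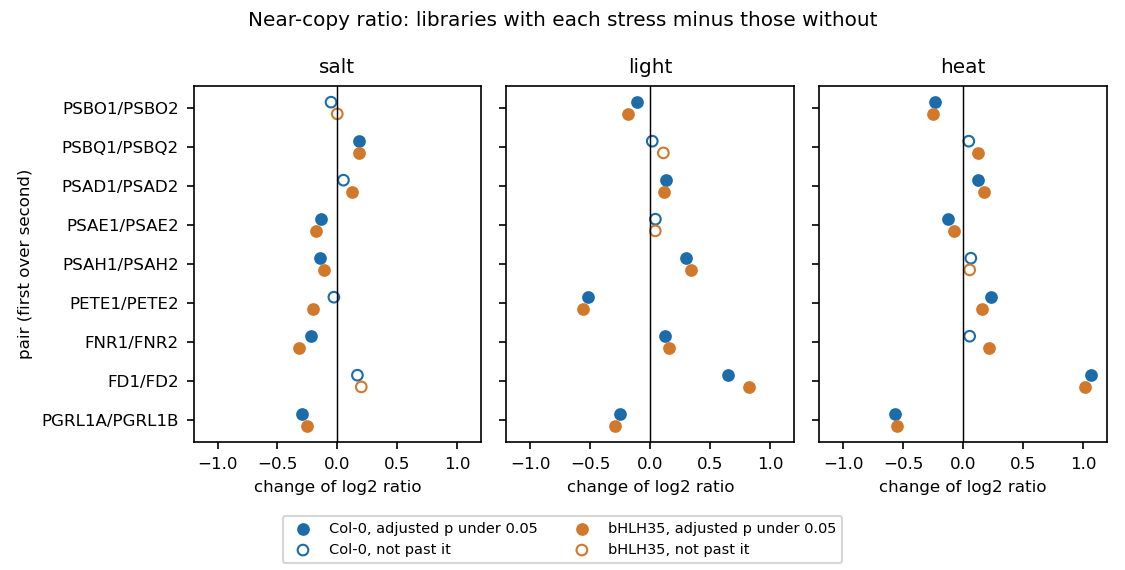
Change of the log2 ratio of the first to the second gene of 9 near-copy pairs (rows) with salt, light and heat (panels), as the mean of libraries with the stress less that without; filled points have an adjusted p under 0.05 in the exact permutation test and open points do not, and colours are the genotypes. FD1 to FD2 is higher with light and with heat, PETE1 to PETE2 is lower with light, and PGRL1A to PGRL1B is lower with each stress.

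Averaged over the other factors, salt was the factor with the most members lower. With salt, 31 of 34 fell and 0 rose in each genotype, where 12.5% of all genes fell and 33.4% rose in Col-0, and 13% and 41.5% in the mutant. The members that did not pass were FNR2, FD1 and PGRL1B. On the same average, 9 of 9 root markers were higher in both genotypes, at medians of 1.06 (Col-0) and 1.89 (mutant), and 4 of 5 green tissue markers were lower. The largest average salt change in Col-0 was that of PSAH1 at -0.53 (SE 0.05, adjusted p 2.7e-08 in limma), and in the mutant that of PSAN at -0.62 (SE 0.05, adjusted p 3.7e-09 in limma). With light, 19 members fell and 2 rose in Col-0 (14.5% of all genes fell and 13.3% rose) and 16 and 3 in the mutant (24.9% and 11.6%), with PETE1 lowest at -0.59 (SE 0.06, adjusted p 1.9e-07 in limma) and FD1 highest at 0.65 (SE 0.08, adjusted p 3.4e-06 in limma) in Col-0. With heat, 21 fell and 3 rose in Col-0 (28.5% and 18.8% of all genes) and 18 and 3 in the mutant (29.6% and 17.4%). FD1 was again highest at 0.73 (SE 0.08, adjusted p 2.4e-07 in limma), and PSAN lowest at -0.34 (SE 0.05, adjusted p 9.1e-06 in limma). Median-of-ratios scaling left 11 members lower with light and 11 with heat in Col-0, and 4 and 10 in the mutant. The shares of all genes called after that scaling are not given here, so these counts have no background to be read against. For the salt average that scaling moved the median over all genes by about as much as the members' median: in Col-0 they went from 0.11 to -0.0045 and from -0.36 to -0.49, and in the mutant from 0.15 to -0.0061 and from -0.46 to -0.65.

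**Figure D5:**
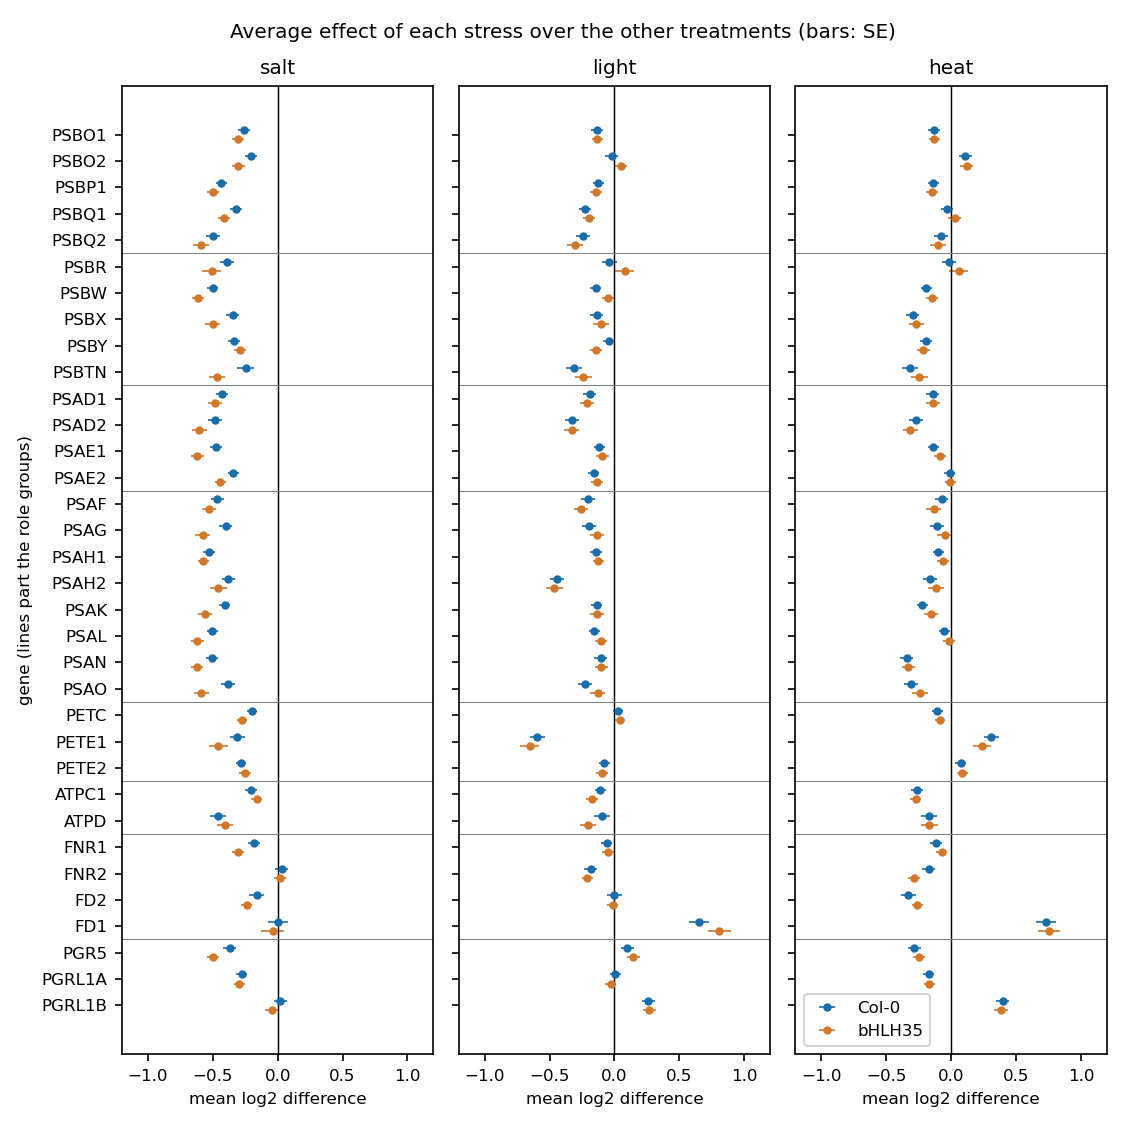
Average log2 change of each of the 34 genes with salt, light and heat in Col-0 and the bHLH35 mutant, from the 8-group factorial fit; points are estimates and bars are SE. Salt estimates are called below 0 for 31 genes in each genotype, and the exceptions FD1, FNR2 and PGRL1B lie near 0.

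Several members stood higher under light and heat together than their separate light and heat changes add up to. In Col-0 the light by heat interaction was called for 12 members, 11 of them positive (6.01% of all genes) and 1 negative (8.05%). The positive ones were PSBP1, PSBW, PSBX, PSBY, PSAD2, PSAK, PSAN, PSAO, ATPC1, PGR5 and PGRL1A, led by PSAD2 at 0.58 (SE 0.11, adjusted p 0.00111 in limma). FD1 was negative at -0.62 (SE 0.16, adjusted p 0.011 in limma): it rose in HL and in HS, and in HL+HS it rose by less than their sum. In the mutant 5 were called, ATPC1, PGR5 and PGRL1A positive (3.67% of all genes) and FD1 and PGRL1B negative (6.37%), and FD1 stood at -0.61 (SE 0.17, adjusted p 0.0283 in limma), a call lost without any of 6 libraries. That count ranged from 1 without S+HL replicate 2 to 11 without HL replicate 1. No member was called for salt by light or salt by heat in limma (0.082% and 0.202% of the genes tested in Col-0, 0.102% and 0.44% in the mutant), while 4 and 16 in Col-0 and 2 and 6 in the mutant had an unadjusted p under 0.05. For the interaction of all 3 stresses 0 members were called by limma (0% of all genes in each genotype) and 0 had an unadjusted p under 0.05. The percentages here are of adjusted calls. The share of all genes at that unadjusted level is not given for the interactions, so the unadjusted counts have no background to be read against.

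Set directly against the sum of the single stresses, HL+HS departed for 8 members in Col-0, 7 above the sum (3.35% of all genes) and FD1 below it (5.93%). PSAD2 was above by 0.69 (SE 0.15, adjusted p 0.00807 in limma), and PSBP1, PSBW, PSAK, PSAN, PSAO and PGRL1A likewise. FD1 was at -0.89 (SE 0.22, adjusted p 0.0157 in limma), a call lost under median-of-ratios scaling. The count was 4 without HS replicate 2, HL+HS replicate 2 or Control replicate 3, and 3 when the contrasted groups alone were fitted. Green tissue markers lay on the same side, with a median of 0.41 against 0.25 for the members, 1 of 5 called and 4 of 5 at an unadjusted p under 0.05, while the root markers had a median of -0.32 and 0 of 9 called. Their part in the departures of the members was not tested. In S+HL, S+HS and S+HL+HS 0 members departed by limma in Col-0 (0.246%, 0.231% and 2.43% of all genes), with 5, 4 and 5 at an unadjusted p under 0.05. The mutant had 0 in all 4 combinations (of all genes 4.03% in HL+HS, 0.256% in S+HS, 0.111% in S+HL and 3.05% with all 3), with 13, 1, 1 and 2 members at an unadjusted p under 0.05, and 5 members departed in HL+HS without HL replicate 1. These percentages are of adjusted calls, and the share of all genes at the unadjusted level is not given for the departures.

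Other nuclear genes of the thylakoid were set beside the members. Of all genes in Col-0, 5.17% fell and 13.6% rose in S. The shares that fell were 7.7% in HL, 15.7% in HS, 19.4% in HL+HS and 18.9% in S+HS. In the mutant 9.29% of all genes fell in HL, 14.8% in HS and 16% in S+HS. The NDH complex carries the second branch of cyclic flow, and of 14 nuclear NDH genes 11 fell in HS of Col-0, 0 in HL and 5 in S, with none higher (median log2 change -0.52, -0.17 and -0.17). In S+HS 13 of 14 fell (median -0.81), and the mutant had 9 lower in HS, 0 in HL and 13 in S+HS. PNSL2, a lumenal NDH subunit related to PSBQ, had 101, 141 and 101 FPKM in Control of Col-0, 44.4, 49.3 and 47.96 in HS and 29.6, 32.6 and 40.4 in S+HS (log2 change -1.24 (SE 0.15, adjusted p 2.7e-06 in limma) and -1.71 (SE 0.15, adjusted p 2.3e-08 in limma)). Of 15 assembly and repair factors, 3 fell and 1 rose in S, 4 fell in HL, 9 in HS, 11 in HL+HS and 13 in S+HS of Col-0. PSB27, a lumenal factor of photosystem II repair, changed by -1.0 (SE 0.09, adjusted p 5.3e-08 in limma) in S+HS, and ALB3, the thylakoid protein insertase, by -0.65 (SE 0.09, adjusted p 5.0e-06 in limma). Among 8 kinases, phosphatases and curvature proteins, 5 fell in S and 4 in HS of Col-0. STN7, the kinase of state transitions, had 116, 102 and 107 FPKM in Control and 50.6, 50.4 and 50.3 in S+HS (log2 change -1.09, SE 0.09, adjusted p 2.0e-08 in limma), and CURT1D rose in HS by 0.92 (SE 0.26, adjusted p 0.00987 in limma), a call lost without HS replicate 3. Of 9 further subunits and isoforms, 1 fell and 2 rose in S of Col-0, near the shares of all genes for so short a list. RFNR2, a reductase of non-green plastids, rose by 1.55 (SE 0.35, adjusted p 0.00394 in limma) in S, where the root markers were also higher.

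The bHLH35 mutation was compared with Col-0 within each treatment and in each stress response. No member passed the test by limma for a level in any of the 8 treatments, where 0.206% of all genes did in Control, and 0.417% in HL, 0.192% in S+HL, 0.136% in HL+HS, 0.0749% in HS, 0.0234% in S, 0.0187% in S+HS and 0.0234% with all 3. At an unadjusted p under 0.05 there were 11 of 34 in HL, 5 in HL+HS, 1 in HS, 1 in S+HL and 0 in the rest, against 8.75% of all genes in HL and 11.1% in HL+HS. In the same comparison root markers had median differences (mutant less Col-0) of -0.64 in HL, -0.91 in HL+HS and -0.95 in HS, with 5, 6 and 8 of 9 at an unadjusted p under 0.05 and 1 called, in HL+HS. Green tissue markers had medians of 0.25, 0.20 and 0.10, with 1, 2 and 0 of 5 at that level and 0 called by limma. In Control, where no member was at that level, the root markers had a median difference of -0.62 with 3 of 9 at it. The green tissue markers had a median of 0.035 there, with 0 of 5. Of all genes, 7.84% were at that level in Control. Their part in the differences of the members was not tested. PSAO had the smallest p-value among the members, with 2120.5, 1836 and 1826 FPKM in HL of Col-0 and 2913, 2242 and 1986 in that of the mutant, a log2 difference of 0.29 (SE 0.11, adjusted p 0.397 in limma). For the difference between genotypes in a stress response, 0 members were called by limma and 0 had an unadjusted p under 0.05, in all 7 responses. Of all genes 0.0234% were called for HL, 0.00468% for S+HL+HS and 0% for the other responses. At the unadjusted level the share of all genes ran from 2.94% for HS to 5.65% for HL+HS. The count of members lower in HL, 20 in Col-0 and 10 in the mutant, is therefore not shown to differ between the genotypes.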

How the data were processed

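The deposited values are FPKM, which the authors gave in 1 table per genotype with 24 libraries each. Reads were 150 bases long and paired, per the labels, with FastQC v0.11.9 as well as Trim Galore v0.6.4 used for quality control. HISAT2 2.2.1 and TAIR10 are named in the submitters' processing notes. The FPKM tool, the annotation, the strand setting and whether both tables were normalized together are not given in the sources used here. Genotype and table therefore cannot be told apart.

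The values of 2 repeated identifiers were summed, leaving 32824 genes. Depth was read from the steps of low values, of which 92.2% to 96.2% in a library were whole fragments within 0.1. No count test was run, because the depth steps of FPKM depend on transcript length. The filter kept genes that reached 1 FPKM in 3 or more libraries, 20744 in Col-0, 20675 in the mutant and 21359 in the fit over both genotypes. limma 3.58.1 in R 4.3.3 was fitted to log2(FPKM + 1) with a variance trend, over all treatments of a genotype, so fold changes are on that scale. P-values were adjusted by Benjamini-Hochberg over all genes and called under 0.05. Contrasts were each stress against Control, the average effects and interactions of the 3 stresses, the departure of each combination from the added single-stress changes, and the genotypes. Ratios of near copies were tested by exact permutation within strata of the other stresses (160000 arrangements, 54 tests, smallest possible p 1.25e-05). All contrasts against Control in a genotype share its 3 Control libraries. The limma steps were tested on simulated data.

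Members and gene lists were chosen with earlier results of these data known. All 34 members may be named, with values by library for the largest and smallest changes in each role group and for near copies. Other genes named are AT5G57150 and genes of the lists. AT4G28755, AT1G55673, ROPGEF13 and TMN1 were added after their values were seen, because their exons overlap members. Sequences and gene positions are from RefSeq TAIR10.1, read with Biopython 1.88. Alternatives were a pseudocount of 0.1, no filter, a mean FPKM of at least 5, a common FPKM sum and median-of-ratios scaling. Further ones were no variance trend, a replicate block, the contrasted groups alone, and each library of the groups compared left out in turn.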

Additional observations from a re-analysis of the deposited data

How the results depend on the processing

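Of 336 calls of a member against Control, 269 remained whichever library of the groups compared was left out, and 255 under every alternative tried. Some small changes turned sign. The log2 change of FD1 in S of the mutant was 0.0431 with a common FPKM sum and -0.0738 to 0.0285 with libraries left out. That of FNR2 in S was 0.0516 and -0.0776 to 0.0486 in the mutant, and -0.104 to 0.0583 with libraries of Col-0 left out. In Col-0 that of PSAE2 in HS ranged over -0.0635 to 0.0304, ATPD in HS over -0.252 to 0.0013 and PGR5 in HL over -0.0644 to 0.0707 with libraries left out.

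Median-of-ratios scaling gave, for members lower, 9 in HS and 5 in HL+HS of Col-0, 6 in HL and 3 in HL+HS of the mutant, 11 with light and 11 with heat on average in Col-0, and 4 and 10 in the mutant. For members higher it gave 1 in S+HL of Col-0, 2 in HL, 1 in S+HL and 1 in S+HS of the mutant and 5 with heat in the mutant, and 1 member of the mutant departed in HL+HS. A fit of the contrasted groups alone gave 8 lower and 1 higher in HL, 9 lower in HS and 1 higher in S+HL of Col-0, with 3 departing in HL+HS, and 4 lower in HL and 5 in HS of the mutant. A mean FPKM of at least 5 gave 16 lower and 2 higher in HL and 10 light by heat calls in the mutant. A common FPKM sum gave 2 higher in HL and 14 lower in HS of the mutant. Without a filter, 4 members departed in HL+HS of Col-0. Without a variance trend 1 was higher in HL of Col-0. The share of all genes called is not given for these alternatives or with libraries left out, so their counts have no background of their own.

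The following ranges are with single libraries of the groups compared left out. Members lower in Col-0 ranged from 12 to 21 in S, 13 to 20 in HL, 9 to 12 in HS and 8 to 13 in HL+HS. In the mutant they ranged from 5 to 20 in HL and 5 to 15 in HL+HS, the lowest without Control replicate 1, HL+HS replicate 1 or HL+HS replicate 3. Members higher ranged from 1 to 2 in HL and 1 to 2 in S+HL of Col-0, 1 to 2 in HL of the mutant and 3 to 5 with heat in the mutant. Light by heat calls of the mutant ranged from 1 to 11. Departures ranged from 4 to 9 in HL+HS of Col-0, 0 to 5 in HL+HS of the mutant and 0 to 1 in S+HL+HS of the mutant, the 1 without HS replicate 1.

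Replicate numbers are shared between groups by label only: deviations of same-numbered libraries had median correlations of 0.003 (Col-0) and 0.014 (mutant), and 6 and 10 of 24 libraries matched their own number best. With a replicate block, 1 member was higher in HL of Col-0 in place of 2, and the light change of PGRL1A to PGRL1B had an exact permutation adjusted p of 0.0703 (Col-0) and 0.0583 (mutant), and the heat change of PETE1 to PETE2 one of 0.071 in the mutant. That adjusted p also passed above 0.05 for PSAD1 to PSAD2 with light (0.072 in Col-0, 0.071 in the mutant) and with heat in Col-0 (0.0857). PSAH1 to PSAH2 with salt had 0.0703 (Col-0) and 0.084 (mutant), and PSBQ1 to PSBQ2 with heat 0.0644 in the mutant. For FD1 to FD2 with salt in the mutant it went the other way, from 0.0963 to 0.00264. Where no construction shows it, the cause of these differences was not tested. Depths of 19.4 to 43.9 M fragments (M, mega), the highest of them uncertain, put little counting error on genes this abundant. The spread between 3 libraries therefore sets the precision.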
